A study of Mus musculus with 9 samples.

Results

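The heat shock proteins of the cytosol and of the mitochondrial matrix were followed in retinal ganglion cells (RGCs) of mice whose intraocular pressure (IOP) had been raised by microbeads. The group was a named list of 10 genes, Hspa8, Hspa1a, Hspa1b, Hsph1, Dnajb1, Hsp90aa1, Hsp90ab1, Hspb1, Hspd1 and Hspe1, found in the files by symbol. All 10 were found among 23997 gene symbols, and all 10 were among the 13070 genes abundant enough to be tested. The cells came from C57BL/6J mice of 8 weeks of age, injected at 6 weeks and collected 2 weeks later. Control eyes had received saline, Mild IOP eyes had microbeads and a mean IOP increase above 1 and below 4 mmHg, and Moderate IOP eyes had microbeads and an increase of at least 4 mmHg. RNA of 12 Control, 12 Mild IOP and 6 Moderate IOP retinas was pooled by group, and each of the 3 pools was divided into 3 portions, with 1 library from each. All 9 libraries were therefore technical replicates, so that each error and FDR covers the spread between libraries of a pool and not between animals. RGCs of all 3 groups were isolated by 4 steps of immunopanning, ending on an antibody against Thy1.2, in solutions that held actinomycin D, an inhibitor of transcription.

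Heat shock proteins are chaperones, which bind unfolded stretches of other proteins and help them to fold, to assemble or to be degraded. Hsp70 proteins work in cycles set by ATP, with J-domain proteins that bring them substrates and exchange factors that release them, and pass some clients on to Hsp90, which completes the folding of kinases and steroid receptors. Small heat shock proteins hold unfolding proteins in solution without ATP, and Hsp60 with its lid Hsp10 encloses proteins that have entered mitochondria. Some of these genes, such as Hspa8 and Hsp90ab1, are active in unstressed cells, whereas others, such as Hspa1a, Hspa1b and Hspb1, are induced when heat shock factor 1 binds to heat shock elements, repeats of the letters GAA and TTC in alternating orientation, in their promoters. Neurons are known for a weak induction of the heat shock genes under stress, and Hspb1 is known to be made by RGCs and glia of the injured retina.

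Promoter sequences from RefSeq (build GRCm38.p6), covering 250 bases before to 50 bases after each start, were given for 7 of the 10 genes in 10 windows. No window was given for Hspa8, Hsp90aa1 and Hsp90ab1, so these genes were not searched. A heat shock element of 3 units, written GAANNTTCNNGAA or, on the other strand, TTCNNGAANNTTC, was found in Hsph1, Hspd1 and Hspe1, and in 198 of 32851 promoters in all (0.603%). The shorter form of 2 units, written GAANNTTC or TTCNNGAA, lies within every longer one and reads the same on both strands. It was found in 6 of the 7 genes, all but Dnajb1, and in 4946 promoters in all (15.1%). The sequences below are the 250 bases before the start of the genes whose pairing or whose difference between groups the results describe. Capitals in Hspe1 mark a run of 18 bases with 4 adjoining units, and capitals in Hspb1 mark the elements of 2 units. Capitals in Hspa1a and Hspa1b mark the 3 bases that differ between the pair.
Hspe1 (chr1:55087898-55088147, plus strand): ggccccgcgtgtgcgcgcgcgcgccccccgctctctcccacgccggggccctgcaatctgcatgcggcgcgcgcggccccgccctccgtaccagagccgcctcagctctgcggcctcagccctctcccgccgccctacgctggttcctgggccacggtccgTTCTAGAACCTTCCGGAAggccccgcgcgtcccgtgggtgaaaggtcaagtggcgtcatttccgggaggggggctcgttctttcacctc
Hspb1 (chr5:135887669-135887918, plus strand): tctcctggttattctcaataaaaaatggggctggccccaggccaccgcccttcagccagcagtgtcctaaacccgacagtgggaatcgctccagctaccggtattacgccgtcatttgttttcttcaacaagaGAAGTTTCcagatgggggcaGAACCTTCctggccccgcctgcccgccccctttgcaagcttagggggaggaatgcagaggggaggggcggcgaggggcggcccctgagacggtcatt
Hspa1a (chr17:34972157-34972406, minus strand): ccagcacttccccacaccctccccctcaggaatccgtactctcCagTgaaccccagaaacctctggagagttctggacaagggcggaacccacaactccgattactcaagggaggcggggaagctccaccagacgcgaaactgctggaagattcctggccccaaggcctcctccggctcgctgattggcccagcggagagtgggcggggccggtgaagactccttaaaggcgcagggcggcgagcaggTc
Hspa1b (chr17:34959239-34959488, minus strand): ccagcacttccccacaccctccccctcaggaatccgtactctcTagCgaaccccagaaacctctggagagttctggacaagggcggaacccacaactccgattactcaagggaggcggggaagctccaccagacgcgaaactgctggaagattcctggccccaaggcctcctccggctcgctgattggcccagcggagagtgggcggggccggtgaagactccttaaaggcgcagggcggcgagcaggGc
Hspe1 and Hspd1, which encode the lid and the barrel of the same mitochondrial chaperonin, start close to each other on opposite strands, and one of the windows of Hspd1 overlapped that of Hspe1 by 285 bases. The run TTCTAGAACCTTCCGGAA lay 89 to 72 bases before the start of Hspe1, and the same run read from the other strand, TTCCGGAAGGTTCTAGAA, lay 144 to 127 bases before that start of Hspd1. In Hspb1 the elements were GAAGTTTC, beginning 117 bases before the start, and GAACCTTC, beginning 97 bases before it. Hspa1a and Hspa1b both held GAAGATTC, beginning 104 bases before the start. In Hsph1 the element TTCTGGAAAGTTC lay after the annotated starts. These matches describe letters in the windows and not binding.

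By the files' coordinates (build mm10), the Hsp70 pair lay on chromosome 17, with Hspa1b at 34956429 to 34959238 and Hspa1a at 34969359 to 34972156. Hsp90ab1 lay on the same chromosome at 45567778 to 45573261, and Hspa8 lay on chromosome 9 at 40801273 to 40805199. Hsp90aa1 lay on chromosome 12 at 110691036 to 110696395 and Dnajb1 on chromosome 8 at 83608175 to 83611903. Chromosome 5 held Hspb1 at 135887919 to 135889563 and Hsph1 at 149616845 to 149636315. Hspd1 at 55077834 to 55087932 and Hspe1 at 55088148 to 55091317 were neighbours on chromosome 1. These spans include exons and any introns. Each value describes a gene as a whole and is given as FPKM, fragments counted relative to transcript length and sequencing depth, scaled between libraries. FPKM are per length, which is needed to set levels of different genes side by side. Short transcripts as a class differed between the groups, as described further on, so that a comparison of a short with a long gene moves with the group.

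The heat shock genes covered a wide span of levels, with the constitutive Hsp70 far above the inducible pair. Averaged over all 9 libraries, Hspa8 was at 1841 FPKM, Hsp90ab1 at 675 and Hsp90aa1 at 376. These levels stood at or above the 98.2 percentile of the tested genes. Hspe1 followed at 145 FPKM, Hspd1 at 65.2, Dnajb1 at 38.3, Hspb1 at 26.2 and Hsph1 at 22.1. The inducible Hsp70 genes came last, with Hspa1a at 11.9 FPKM and Hspa1b at 7.74, near the middle of the tested genes (percentiles 57.5 and 47.4). Most neighbours in this order did not overlap in any library. The exceptions were Hspe1 and Hspd1, Dnajb1 and Hspb1, and Hspb1 and Hsph1, whose ranges over the libraries overlapped. Within a library Hspe1 was above Hspd1 in 9 of 9, Dnajb1 above Hspb1 in 8 of 9 and Hspb1 above Hsph1 in 6 of 9. Summed over the 10 genes, the level lay between 3263 and 3581 FPKM in Control, between 2711 and 3055 under Mild IOP and between 3299 and 3369 under Moderate IOP. The Mild IOP libraries were below all others in this sum. Hspa8 made up 58.1% ± 2.77 of it in Control, 60.3% ± 1.31 under Mild IOP and 54.1% ± 0.917 under Moderate IOP (SD, n = 3).

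**Figure D1:**
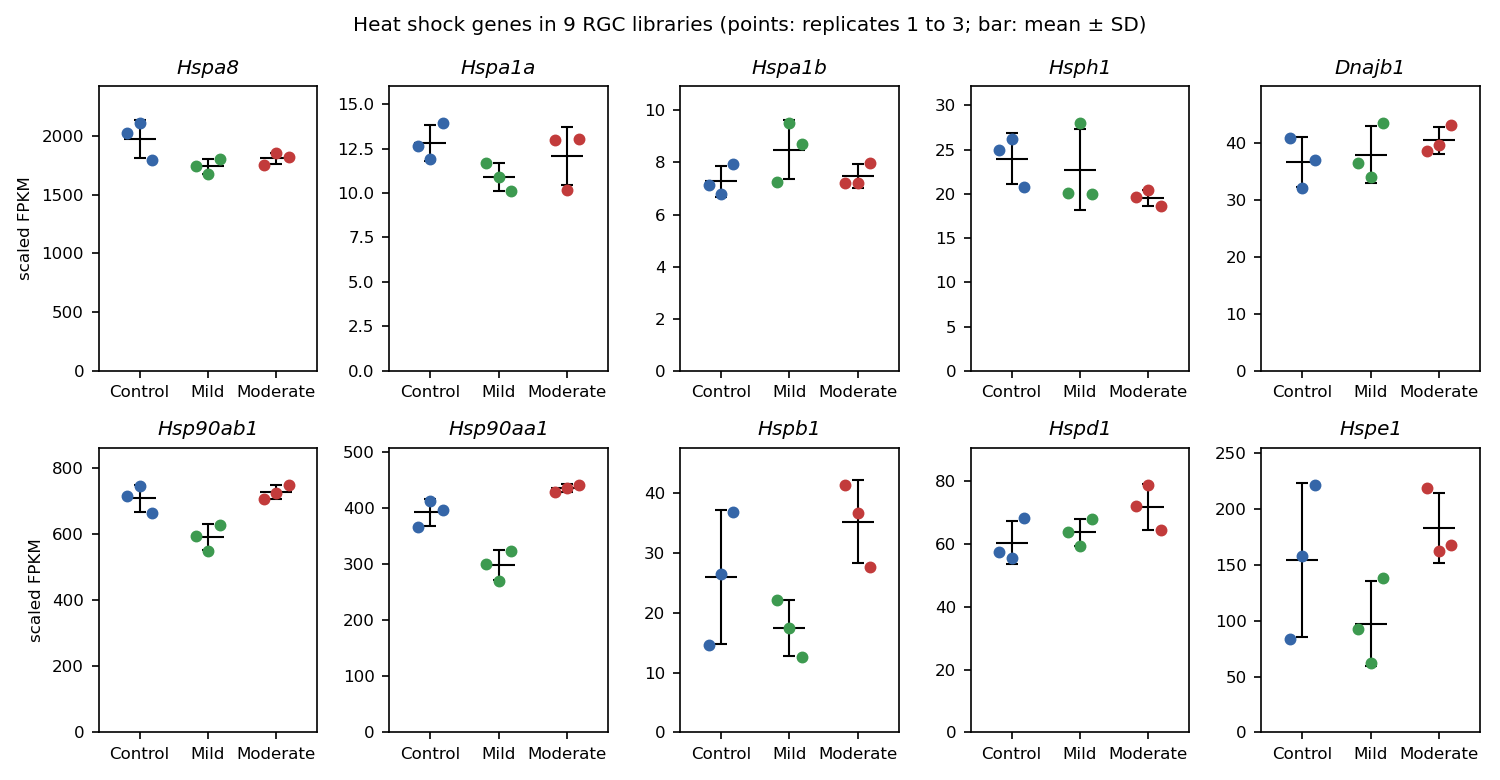
Level of the 10 heat shock genes in each of the 9 RGC libraries, as scaled FPKM on linear axes that start at 0, 1 panel a gene; points are the technical replicates 1 to 3 of the Control (blue), Mild IOP (green) and Moderate IOP (red) pools and bars give the mean and SD. The Mild IOP points of Hsp90aa1 (270 to 323 FPKM) lie below all Control and Moderate IOP points, and the Control points of Hspe1 spread from 84.0 to 222 FPKM.

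Each pair of groups was compared with limma over all tested genes, and a gene was called at an FDR below 0.1. None of the 10 heat shock genes was called in Mild IOP against Control, where 0.398% of all tested genes were called. None was called in Moderate IOP against Control, where 1.84% of all were. By limma's unadjusted p below 0.05 the count was 2 of the 10 in the first of these comparisons, against 10.1% of all genes, and 0 in the other, against 15.3%. Between Moderate and Mild IOP 2 of the 10 were called, Hsp90aa1 and Hspb1, both higher in Moderate IOP, where 10.1% of all genes were called and 7.02% were called as higher in this direction. By unadjusted p below 0.05 the count was 4 of the 10 here, with Hsp90ab1 and Hspe1 added, against 21.8% of all genes. With 10 genes, 1 gene is a large share, so the counts say little beside the values of each gene.

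The libraries of the groups overlapped for most of the 10 genes. In Mild IOP against Control, 3 genes had all Mild IOP libraries below all Control libraries (Hspa1a, Hsp90aa1 and Hsp90ab1) and 7 overlapped. Of all tested genes, 17.1% did not overlap in this comparison and 9.11% were lower in Mild IOP without overlap. In Moderate IOP against Control, Hsp90aa1 was higher and Hsph1 lower without overlap and 8 genes overlapped, beside 19.4% of all genes without overlap. In Moderate against Mild IOP, 4 genes were higher without overlap (Hsp90aa1, Hsp90ab1, Hspb1 and Hspe1), where 14.5% of all genes were and 27.5% did not overlap in either direction. The median log2 difference of the 10 genes was −0.20, 0.09 and 0.15 in the 3 comparisons, in the order given, and that of all genes 0.01, 0.00 and −0.02. The 3 comparisons share their groups and are not independent of each other.

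**Figure D2:**
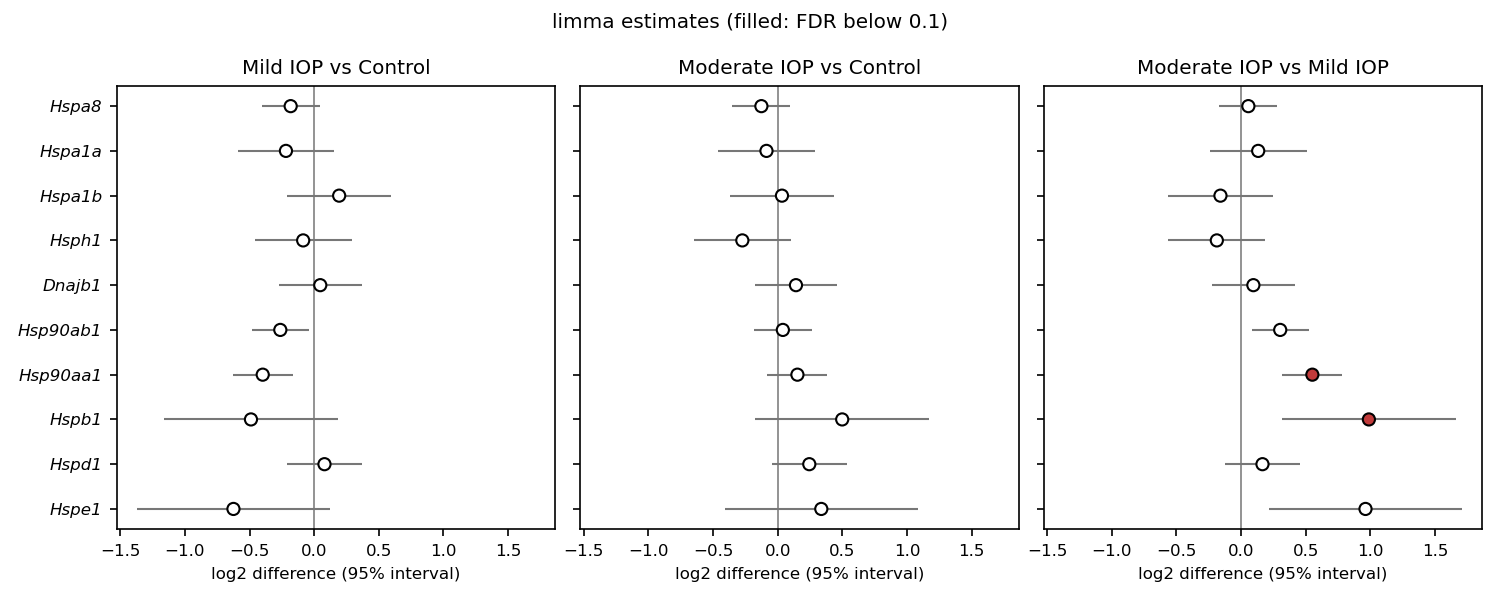
Estimated log2 difference of each heat shock gene with its 95% interval from limma, on log2(scaled FPKM + 1), in 3 panels for Mild IOP against Control, Moderate IOP against Control and Moderate against Mild IOP; filled red points mark an FDR below 0.1. Hsp90aa1 (0.55) and Hspb1 (0.99) are filled in the last panel, and no point is filled in the panels against Control.

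Hspa8 encodes the constitutive Hsc70, which folds new proteins and uncoats clathrin vesicles at synapses. It was at 2026, 2108 and 1797 FPKM in the Control libraries, at 1741, 1672 and 1804 in Mild IOP and at 1753, 1851 and 1819 in Moderate IOP. The highest 2 libraries were both Control, and the groups overlapped in every comparison. The log2 difference was −0.18 (95% interval −0.41 to 0.04, FDR = 0.614) for Mild IOP against Control and −0.13 (−0.35 to 0.10, FDR = 0.600) for Moderate IOP against Control, from limma. The scale of these values is log2(scaled FPKM + 1), as for all differences here. Between Moderate and Mild IOP it was 0.06 (−0.17 to 0.28, FDR = 0.801), and its sign turned with no scaling (−0.03) and with upper quartile scaling (−0.01).

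Hspa1a and Hspa1b encode the Hsp70 that is induced by heat and other stress, and their coding sequences are nearly the same. In GENCODE release M21 they differed at 36 of 1926 bases (98.1% identity), with an identical run of 638 bases, and 68.1% of all stretches of 100 bases, the read length of the study, were identical. Untranslated parts were not compared and the reads came in pairs, so this is not the share of fragments that match both genes. How the authors' counting divided reads from identical stretches is not given in the sources used here. The level of each gene is therefore uncertain, and the sum of both is given as well. Hspa1a was at 12.7, 11.9 and 13.9 FPKM in Control, 11.7, 10.9 and 10.1 under Mild IOP and 13.0, 10.2 and 13.1 under Moderate IOP. Hspa1b was at 7.14, 6.77 and 7.92 FPKM in Control, 7.27, 9.50 and 8.71 under Mild IOP and 7.21, 7.19 and 7.99 under Moderate IOP. The lower Hspa1a and the higher Hspa1b of Mild IOP cancelled in the sum, which was 20.1 ± 1.60 FPKM in Control, 19.4 ± 0.872 under Mild IOP and 19.5 ± 1.92 under Moderate IOP (SD, n = 3). With limma, the log2 difference of Mild IOP against Control was −0.22 (95% interval −0.59 to 0.16, FDR = 0.737) for Hspa1a and 0.19 (−0.21 to 0.60, FDR = 0.799) for Hspa1b. For the sum it was −0.05. The ratio of Hspa1a to Hspa1b was between 1.76 and 1.77 in the Control libraries, between 1.14 and 1.61 in Mild IOP and between 1.42 and 1.80 in Moderate IOP. In the comparisons of Moderate IOP with the other groups, the estimates of both genes lay between −0.16 and 0.13, with FDR of 0.664 or more.

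Dnajb1, a J-domain protein that starts the Hsp70 cycle, and Hsph1, an Hsp110 that releases ADP from Hsp70, are partners of the Hsp70 proteins. Dnajb1 was at 36.6 ± 4.35 FPKM in Control, 37.9 ± 4.93 under Mild IOP and 40.4 ± 2.45 under Moderate IOP (SD, n = 3). Its lowest library was a Control library at 32.1 FPKM and its highest a Mild IOP library at 43.4, and all groups overlapped. Its log2 differences lay between 0.05 and 0.14, and no FDR was below 0.690. Hsph1 was at 25.0, 26.2 and 20.8 FPKM in Control, 20.1, 28.0 and 20.0 under Mild IOP and 19.7, 20.4 and 18.6 under Moderate IOP. All Moderate IOP libraries of Hsph1 lay below all Control libraries, though the nearest were at 20.4 and 20.8 FPKM. The log2 difference was −0.27 (95% interval −0.65 to 0.10, limma FDR = 0.480). Hspa8 was 82.7 ± 3.36 times Hsph1 in Control and 92.4 ± 4.50 times in Moderate IOP, without overlap. The ratio of Hspa8 to Dnajb1 was lower in Moderate IOP (44.9 ± 2.40) than in Control (54.6 ± 9.54), again without overlap (SD, n = 3). No ratio of Hspa8 to these partners, nor to the inducible Hsp70 pair, separated Moderate from Mild IOP.

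Hsp90aa1 encodes Hsp90 alpha, the inducible form, and was the only one of the 10 genes with no overlap between any of the groups. It was at 367, 413 and 397 FPKM in Control, at 301, 270 and 323 under Mild IOP and at 429, 437 and 442 under Moderate IOP. Mild IOP was lowest, Control between and Moderate IOP highest. On scaled FPKM + 1, Moderate IOP was 1.47 times Mild IOP, a log2 difference of 0.55 (95% interval 0.32 to 0.78, limma FDR = 0.0156). Against Control the difference was −0.40 in Mild IOP (−0.63 to −0.17, FDR = 0.198) and 0.15 in Moderate IOP (−0.08 to 0.38, FDR = 0.525), neither of which was called. Hsp90aa1 was called between Moderate and Mild IOP in all 22 alternative analyses, with log2 differences of 0.46 to 0.64 and FDR of 0.0103 to 0.0784.

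Hsp90ab1 encodes Hsp90 beta, the constitutive form. Its libraries were at 716, 745 and 663 FPKM in Control, 595, 548 and 627 under Mild IOP and 707, 725 and 750 under Moderate IOP. The Mild IOP libraries were below all others, and Control and Moderate IOP overlapped. The log2 difference of Moderate from Mild IOP was 0.30 (95% interval 0.08 to 0.52) with an FDR of 0.109 from limma, and that of Mild IOP from Control −0.26 (−0.48 to −0.04, FDR = 0.386). The alpha and beta forms varied together over the 9 libraries (Pearson r = 0.94, libraries of 3 pools), the highest value among all pairs of the 10 genes. The change was not equal in both, however. The beta form was 1.81 ± 0.142 times the alpha form in Control, 1.98 ± 0.0447 times in Mild IOP and 1.67 ± 0.0249 times in Moderate IOP (SD, n = 3). Each Moderate IOP library (1.65 to 1.70) was below each Mild IOP library (1.94 to 2.03), and Control (1.67 to 1.95) overlapped with both.

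**Figure D3:**
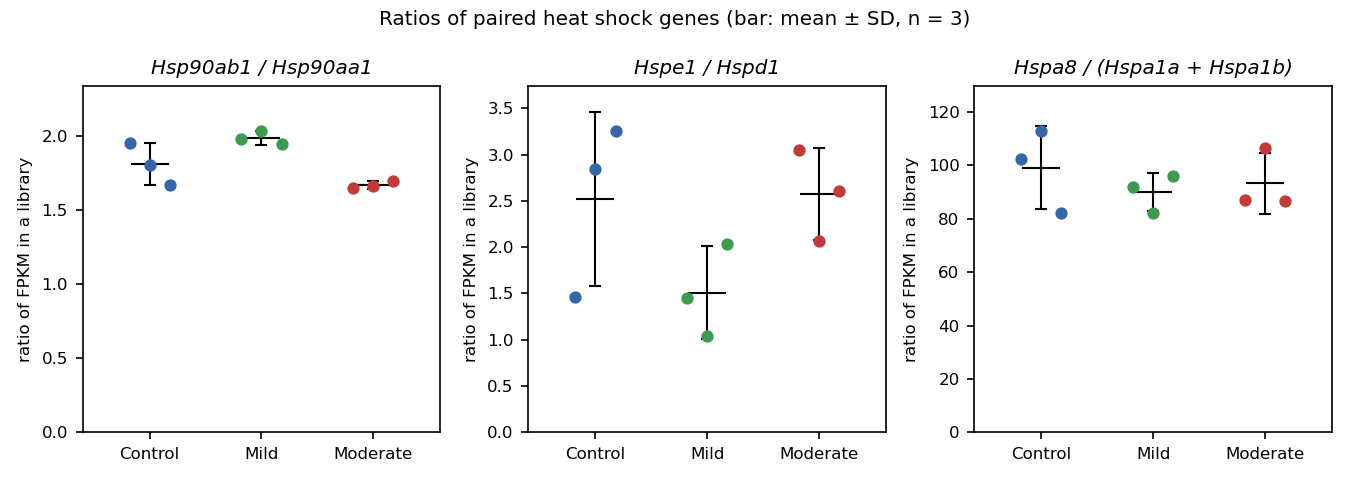
Ratios of FPKM within each library for Hsp90ab1 over Hsp90aa1, Hspe1 over Hspd1 and Hspa8 over the summed Hspa1a and Hspa1b, on linear axes that start at 0; points are the 3 libraries of the Control, Mild IOP and Moderate IOP pools, bars the mean and SD. Moderate and Mild IOP do not overlap in the first ratio (1.65 to 1.70 against 1.94 to 2.03) or in the second (2.06 to 3.05 against 1.04 to 2.04), and all groups overlap in the third.

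Hspb1 encodes Hsp27, a small heat shock protein that also binds actin filaments. It was at 14.6, 26.4 and 36.9 FPKM in Control, at 22.1, 17.5 and 12.7 under Mild IOP and at 41.4, 36.6 and 27.7 under Moderate IOP. Moderate IOP was above Mild IOP in every library, while the Control libraries spanned nearly the range of both. On scaled FPKM + 1, Moderate IOP was 1.98 times Mild IOP, a log2 difference of 0.99 (95% interval 0.31 to 1.66, limma FDR = 0.0879). Neither group was called against Control, with log2 differences of −0.49 (−1.16 to 0.19, FDR = 0.648) in Mild IOP and 0.50 (−0.18 to 1.17, FDR = 0.472) in Moderate IOP. The fragments behind a value, derived from the authors' confidence interval, were few for Hspb1, from 45.8 in a Mild IOP library to 218 in a Moderate IOP library. The call depended on single libraries and on the processing, and was lost in 12 of 22 alternatives. The FDR was 0.115 without Control replicate 2, 0.103, 0.209 and 0.214 without Mild IOP replicates 1, 2 and 3, and 0.200 and 0.189 without Moderate IOP replicates 1 and 2. With the replicate number as a block the FDR was 0.139. The call was also lost with no scaling, upper quartile scaling, no filter, no variance trend and the length correction given further on.

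Hspd1 encodes Hsp60, the barrel of the mitochondrial chaperonin, and Hspe1 encodes Hsp10, its lid. Hspd1 was at 57.5, 55.4 and 68.2 FPKM in Control, 63.8, 59.4 and 67.8 under Mild IOP and 71.8, 78.8 and 64.3 under Moderate IOP. All groups overlapped, and with limma the largest difference, Moderate IOP from Control, was 0.24 on the log2 scale (95% interval −0.05 to 0.54, FDR = 0.410). Hspe1 was at 84.0, 158 and 222 FPKM in Control, at 92.5, 62.0 and 138 under Mild IOP and at 219, 163 and 167 under Moderate IOP. The Control libraries of Hspe1 differed more among themselves than the group means did. Moderate IOP was above Mild IOP in every library, with a log2 difference of 0.96 (95% interval 0.22 to 1.71, limma FDR = 0.128), which was not called. Against Control the difference was −0.62 in Mild IOP (−1.37 to 0.12, FDR = 0.598) and 0.34 in Moderate IOP (−0.41 to 1.08, FDR = 0.682). The last turned to −0.04 without Control replicate 1, the library with the lowest Control value. The lid has a short transcript (774 nt) and the barrel a longer one (2423 nt). Once a trend on transcript length had been removed, an analysis given in full further on, the log2 difference of Moderate from Mild IOP was 0.34 for Hspe1 and 0.15 for Hspd1, against 0.96 and 0.17 with the trend in place. The ratio of lid to barrel was 2.52 ± 0.939 in Control, 1.51 ± 0.498 under Mild IOP and 2.57 ± 0.494 under Moderate IOP (SD, n = 3). Across the 9 libraries, the pair that shares a promoter region had a Pearson r of 0.55, below that of Hspe1 with Hsp90aa1 (0.81) and with Hspb1 (0.74).

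Hspe1 and Hspb1 have the shortest transcripts of the 10 genes, and short transcripts as a class moved with the groups. By GENCODE M21 the longest coding transcript was 774 nt for Hspe1 and 930 nt for Hspb1, and the other 8 genes had between 2394 and 3802 nt. Among 12457 tested genes with a length, the 814 below 1000 nt had a median log2 difference of −0.46 for Mild IOP against Control and 0.23 for Moderate IOP against Control. Between Moderate and Mild IOP the median of these short genes was 0.67 and 38.5% of them were called. The 9114 genes of at least 2000 nt had a median of −0.10 there, and 6.25% were called. The values of Hspb1 (0.99) and Hspe1 (0.96) stood just above the upper quartile of genes between 500 and 1000 nt (0.93). Hsp90aa1 (0.55), with 3281 nt, stood above the upper quartile of its length class (0.14). After a trend on transcript length had been removed from each library, an analysis chosen after seeing the data, the log2 difference of Moderate from Mild IOP was 0.45 for Hspb1 (limma FDR = 0.517) and 0.34 for Hspe1 (FDR = 0.589). It was 0.64 for Hsp90aa1 (FDR = 0.0109) and 0.30 for Hsp90ab1 (FDR = 0.0761), so that both Hsp90 genes and no other of the 10 were called. The share of all genes called fell to 3.83% (477 of 12457). With the trend in place or removed, 2 of the 10 were called, but Hsp90aa1 alone in both.

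**Figure D4:**
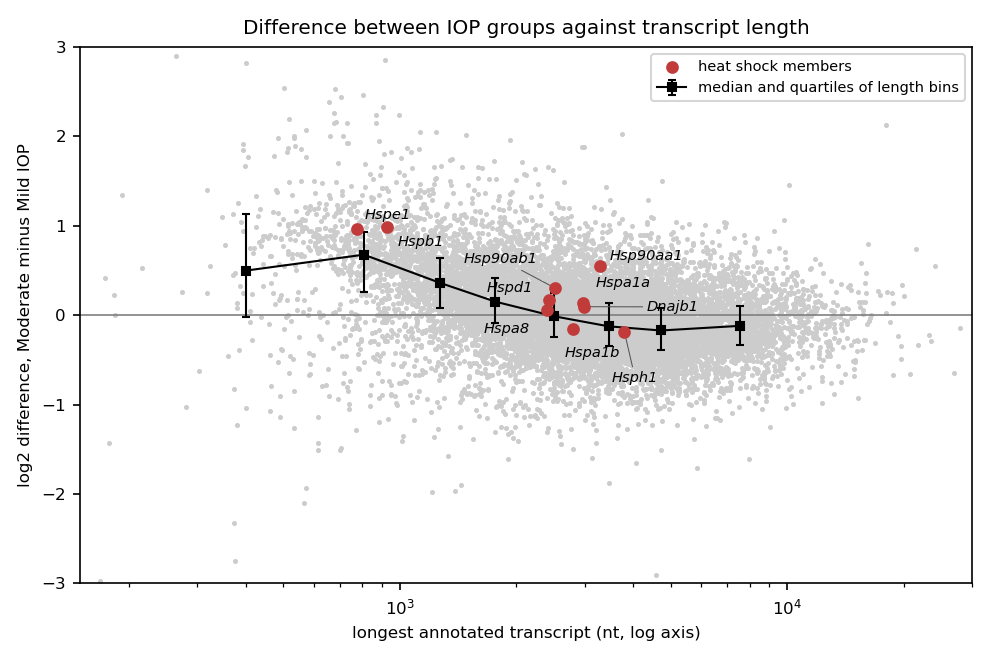
Log2 difference of Moderate from Mild IOP (limma) against the length of the longest coding transcript in nt on a log axis; grey dots are tested genes with a length, red dots the 10 heat shock genes, and black squares with bars the median and quartiles of 8 length classes. Hspe1 and Hspb1 lie close above the upper quartile of their class, Hsp90aa1 lies well above that of longer genes, and 11 genes differ by more than 3 log2 units and fall outside the axis.

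The other genes of the chaperone network were taken from 10 lists with 100 genes, of which 94 were tested. Called higher and lower, respectively, were 0 and 1 in Mild IOP against Control, 1 and 0 in Moderate IOP against Control, and 14 and 1 in Moderate against Mild IOP. The last makes 16.0% of the tested list genes, beside 10.1% of all tested genes. This share also moved with transcript length, from 38.5% of genes below 1000 nt to 6.25% of those of at least 2000 nt. The list genes were not matched to all genes in length, and their differences are given with the length trend in place. In the comparisons with Control the share of all genes was 0.398% for Mild IOP and 1.84% for Moderate IOP. The median log2 difference of the list genes between Moderate and Mild IOP was 0.13, and that of all genes −0.02. Of the heat shock factors, which switch on the heat shock genes, Hsf1 was at 20.6 ± 3.84 FPKM in Control, 13.8 ± 1.94 under Mild IOP and 21.6 ± 6.04 under Moderate IOP (SD, n = 3) and was not called. Hsf2 and Hsf4 did not exceed 4.57 FPKM in any library, and Hsf5 was too low to be tested. Hsbp1, a small protein that binds heat shock factor 1, was at 299.7 ± 17.1 FPKM in Control, 291 ± 44.2 under Mild IOP and 484 ± 39.2 under Moderate IOP. It was the only one of the list genes called in Moderate IOP against Control (log2 0.69, limma FDR = 0.0406) and was also called against Mild IOP (0.74, FDR = 0.0108).

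Among the partners of cytosolic Hsp70, none of the 7 other Hsp70 and Hsp110 genes was called in any comparison by limma, and the most abundant, Hspa4l, was at 47.7, 54.4 and 37.8 FPKM in Control, Mild and Moderate IOP. Of 18 J-domain genes, Dnajb6 (log2 0.58, limma FDR = 0.0439) and Dnajc8 (0.67, FDR = 0.0384) were higher in Moderate than in Mild IOP. Dnajb5 was lower there (−0.75, FDR = 0.0676). Of 9 exchange factors and regulators, Bag1, which releases nucleotide from Hsp70, was higher in Moderate than in Mild IOP (0.46, limma FDR = 0.0348). Stub1, a ubiquitin ligase bound to Hsp70 and the most abundant, was at 298, 256 and 319 FPKM and was not called. Of 16 cochaperones of Hsp90, Nudc (0.38, FDR = 0.0614) and Sugt1 (0.65, FDR = 0.0334) were higher in Moderate than in Mild IOP. Fkbp4, the most abundant of these and a partner of steroid receptors, was at 253, 229 and 215 FPKM and was not called.

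Of the small heat shock proteins beside Hspb1, 4 of 7 were tested. Hspb6 (log2 0.63, limma FDR = 0.0677), Hspb8 (0.92, FDR = 0.0836) and Cryab (1.38, FDR = 0.0290) were higher in Moderate than in Mild IOP. Cryab encodes alpha B-crystallin, which is abundant in the lens as well as in glia and neurons under stress. It was at 26.8 ± 5.05 FPKM in Control, 4.39 ± 0.901 under Mild IOP and 13.9 ± 6.07 under Moderate IOP (SD, n = 3), and was lower in Mild IOP than in Control (−2.36, FDR = 0.0127). Lens genes moved with the Control group, and the summed level of 5 lens markers was between 236 and 312 FPKM in Control, between 0.401 and 1.52 in Mild IOP and 0 in each Moderate IOP library. All 5 were called lower than Control in both IOP groups and none between them. Of all tested genes, 0.398% were called in Mild IOP against Control and 1.84% in Moderate IOP against Control. The part of lens RNA in the level of Cryab was not tested.

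Of the folding complexes, the TRiC chaperonin, the cytosolic relative of Hsp60 that folds actin and tubulin, had none of 8 genes called in any comparison by limma. Its most abundant subunit over all libraries, Cct8, was at 199, 207 and 198 FPKM in Control, Mild and Moderate IOP. Prefoldin, which hands substrates to TRiC, had 4 of 5 tested genes higher in Moderate than in Mild IOP, namely Pfdn1 (log2 0.89, limma FDR = 0.00812), Pfdn2 (0.74, FDR = 0.0301), Pfdn4 (1.23, FDR = 0.0176) and Pfdn5 (0.95, FDR = 0.0526). Their transcripts were between 1041 and 1735 nt long, and 20.5% of all genes of 1000 to 1500 nt and 9.56% of those of 1500 to 2000 nt were called in this comparison. Of 16 mitochondrial chaperones and proteases, Dnajc19, a J-domain protein of the inner membrane, was higher in Moderate than in Mild IOP (0.90, FDR = 0.0254). Clpp, a protease and the most abundant of them, was at 181, 131 and 159 FPKM and was not called. The mitochondrial Hsp70 Hspa9 (66.3, 72.2 and 58.0 FPKM) and the mitochondrial Hsp90 Trap1 (22.9, 23.7 and 25.4) were not called in any comparison. Nor were the endoplasmic reticulum relatives Hspa5 (175, 182 and 184 FPKM) and Hsp90b1 (121, 108 and 96.0), and none of the 7 tested genes of that list was called.

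Other markers differed between the pools, so that the RNA of a heat shock gene is the sum over the cells each pool held. In pooled RNA, fewer cells of a type and less RNA per cell cannot be told apart. All 8 RGC markers were detected. Their summed level was 1444 to 1529 FPKM in Control, 1056 to 1308 in Mild IOP and 2284 to 2435 in Moderate IOP. Of these 8, 5 were called higher in Moderate than in Mild IOP, beside 7.02% of all tested genes. In Moderate IOP 2 of the 8 were called higher than in Control, where 1.84% of all genes were called, and in Mild IOP 0 were. The 5 amacrine markers summed to 773 to 817 FPKM in Control, 846 to 905 in Mild IOP and 544 to 597 in Moderate IOP. Of these 5, 3 were called lower in Moderate than in Mild IOP, where 10.1% of all genes were called in either direction. Called lower than in Control were 2 of the 5 in Moderate IOP and 0 in Mild IOP. The summed RGC markers, most of whose level came from Sncg (928, 653 and 1414 FPKM in Control, Mild and Moderate IOP), and Hsp90aa1 were both lowest in Mild IOP and highest in Moderate IOP. Single markers did not all share this order, since the means of Nefl and Slc17a6 were lowest in Control and that of Pou4f2 was highest there. The marker levels were not corrected for transcript length, and genes below 1000 nt as a class had the same order of groups. The median log2 difference of these short genes was −0.46 for Mild IOP and 0.23 for Moderate IOP against Control. The part of transcript length in the marker sum was not tested, nor was the part of the RGC share in the level of Hsp90aa1. The 5 Mueller glia markers summed to 115 to 126 FPKM in Control, 107 to 138 in Mild IOP and 163 to 218 in Moderate IOP. Most of this level came from Apoe (79.7, 82.7 and 129 FPKM in Control, Mild and Moderate IOP). In Moderate IOP 2 of the 5 were called higher than in Control, and 2 higher than in Mild IOP. Single markers were not all highest in Moderate IOP, since the mean of Slc1a3 was highest in Mild IOP and that of Aqp4 in Control. The astrocyte markers, of which 2 of 4 were tested, summed to at most 6.92 FPKM in any library. Mueller glia and astrocytes can make Hspb1, and their part in its level was not tested. The 5 rod markers summed to 418 to 511 FPKM in Control, 279 to 322 in Mild IOP and 274 to 315 in Moderate IOP. Called lower than in Control were 2 of the 5 in Mild IOP, where 0.398% of all genes were called, and 3 in Moderate IOP. Cone markers reached at most 9.13 FPKM in any library, bipolar markers 16.6, microglial markers 17.1 and endothelial markers 3.24, with the endothelial genes Cldn5 and Cdh5 listed at 0 in all libraries.

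Immediate early genes, which respond within minutes to stimulation, stress or cell isolation, are read beside the inducible heat shock genes. Of 16 such genes 11 were tested, and the summed level was between 456 and 488 FPKM in Control, 325 and 364 under Mild IOP and 506 and 518 under Moderate IOP. Between Moderate and Mild IOP 4 were called higher and none lower, beside 7.02% of all tested genes called higher. These were Fos, Junb, Egr1 and Btg2, which are named here because of their values. Against Control, Egr1 (limma FDR = 0.0150) and Nr4a1 (FDR = 0.0633) were lower in Mild IOP, beside 0.398% of all genes called. Junb was higher in Moderate IOP than in Control (FDR = 0.0419), beside 1.84% called. Hsp90aa1 had the same order of groups as the summed level of the early genes. Hspa1a plus Hspa1b, at 17.4 to 21.8 FPKM over all libraries, did not. Single early genes did not all share the order of their sum. The means of Egr1, Nr4a1, Dusp1, Ier2 and Atf3 were highest in Control, and that of Jun was lowest there. The part of cell isolation in these levels was not tested.

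As a description, the genes whose levels followed a heat shock gene most closely over the 9 libraries were found by Pearson's r. For Hspa8 they were Idh3g (0.94), 5830403L16Rik (0.93), Fuca1 (0.92), Mdh1 (0.92) and Tmed3 (0.91). For the summed Hspa1a and Hspa1b the nearest genes were Galnt1 (0.95), Etv6 (0.92), Mapre1 (0.91), Sqle (0.90) and Spryd4 (0.89), with means of 10.8, 2.36, 7.89, 79.8 and 9.44 FPKM. For Hsp90aa1, which was added after its values had been seen, the nearest genes were Eif1b, Dynll1, Rps23, Rps7 and Cox5b, each with r = 0.99. These correlations used values with the trend on transcript length in place, and the part of length in them was not tested. The 9 libraries come from 3 pools, and the genes were picked as the highest among all tested genes outside the 10.

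The libraries listed between 14182 and 14914 symbols above 0, and their scaling factors were between 0.966 and 1.04. The most abundant gene took 20.5% of all FPKM in Mild IOP replicate 2 and 9.14% in Moderate IOP replicate 3, against 1.87% to 3.59% in the other 7 libraries. Without Mild IOP replicate 2, Hsp90aa1 was still called between Moderate and Mild IOP (log2 difference 0.48, limma FDR = 0.0387). The least covered heat shock genes beside Hspb1 were Hspa1b, with 96.7 to 177 derived fragments a library, Hspa1a with 153 to 295 and Hspe1 with 224 to 784. Hspa8 had between 16459 and 37720. How close these derived numbers are to counted fragments was not tested.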

How the data were processed

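RGCs were immunopanned from C57BL/6J retinas, their RNA was pooled by group, and libraries were made with SMART-seq v4 and Nextera XT and sequenced on a HiSeq2500. The study's methods name bowtie2, cufflinks and cuffdiff on mm10, and the submitters' processing notes name FastQC, Trimmomatic, TopHat2, Cufflinks and Cuffdiff. The deposited values are FPKM per locus, which the authors estimated for each of the 9 libraries with a confidence interval. No library totals were used, and fragments behind a value were derived as (2 × FPKM / (upper bound − FPKM)) squared.

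The 24487 loci gave 23997 symbols, whose FPKM were added up over their loci, and 2 symbols with a failed estimate were left out. Scaling was by the median of ratios. The model, limma 3.58.1 (R 4.3.3) with a variance trend, took log2(scaled FPKM + 1) of the 13070 genes whose mean reached 0.5 and estimated the 3 groups together. The Benjamini-Hochberg adjustment ran over these genes within each comparison. A call was an FDR below 0.1. FPKM are not counts, so no count model was used. The fit was also run on simulated data with independent noise for each gene. It recovered 77 of 100 changes of 1 log2 unit and 98 of 100 of 2 log2 units, with 18 false calls. The simulation held no trend on transcript length and no spread between animals, so it did not test these. The study's own comparisons were not used.

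Groups and replicate numbers came from the labels. The members and gene lists were chosen with earlier results of these data known. From each list were named the genes called in any comparison, or the 4 with the smallest FDR where more were called, and the most abundant gene. Also named were Hspa5, Hspa9, Hsp90b1 and Trap1, and the 5 genes nearest in pattern to Hspa8 and to Hspa1a plus Hspa1b. Lengths are from GENCODE M21. Of the listed genes, Pfdn6 was not analysed here. Alternatives were tried for scaling, pseudocount, filter, failed estimates, loci of a symbol, groups in the variance, variance trend, replicate block, the Hspa1 pair, transcript length, and each library left out. Figures were drawn with matplotlib 3.10.9 in Python 3.11.15.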

Additional observations from a re-analysis of the deposited data

Results flagged for a closer look

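The contrast with Control differed between the IOP groups for 2 of the 10 heat shock genes, by limma's test of Moderate against Mild IOP itself, in which 10.1% of all tested genes were called and 7.02% were called as higher in Moderate IOP. For Hsp90aa1 the difference was 0.55 on the log2 scale (SE 0.105, FDR = 0.0156), with every Moderate IOP library above every Mild IOP library. For Hspb1 it was 0.99 (SE 0.307, FDR = 0.0879), also without overlap. This call was lost in 12 of 22 alternatives. The transcript of Hspb1 is short, and short genes as a class had a median difference of 0.67.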

How the results depend on the processing

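Over 22 alternatives, 628 of 660 log2 differences of the 10 genes kept their direction and their side of the threshold. No member was called against Control under any of them. Between Moderate and Mild IOP the number called, 2, became 4 with a mean of at least 5 FPKM and 1 with no scaling, upper quartile scaling, no filter, no variance trend or the replicate block, and was 1 to 4 with a library left out. The replicate numbers did not pair the libraries (mean r of deviations 0.0127 over 9 same-numbered pairs, −0.00634 over 18 others), and the block left Hsp90aa1 called. No estimate that changed sign had been called. With the Hspa1 pair summed, Hspa1b became −0.049, −0.041 and 0.0082 in the 3 comparisons. Hspa8 in Moderate against Mild IOP became −0.031 with no scaling and −0.012 with upper quartile scaling. With a library left out, the estimates against Control ranged from −0.056 to 0.13 for Dnajb1 in Mild IOP. In Moderate IOP they ranged from −0.14 to 0.021 for Hspa1a, −0.011 to 0.088 for Hspa1b, −0.0070 to 0.078 for Hsp90ab1 and −0.044 to 0.65 for Hspe1. Of all genes, 52 were called in Mild IOP against Control, and 24 without the filter, 85 with a mean of at least 5, 11 with variance from the compared groups, 15 without the trend, 25 with the block, 20 with the length correction and 15 to 183 with a library left out, the last without Mild IOP replicate 3. In Moderate IOP against Control 241 were called, and 131 with variance from the compared groups, 145 without the trend, 134 with the block and 61 to 278 with a library left out. Between Moderate and Mild IOP 1324 were called, and 836 without the trend, 477 with the length correction and 520 to 1399 with a library left out. The causes were not tested. Derived fragments a library were fewest, 45.8, for Hspb1 in Mild IOP replicate 3, and intervals cover technical spread alone.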
